A study of Homo sapiens with 24 samples.

Results

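The comparison asks whether 2 human cell lines, PANC-1 and HEK293T, changed their transcripts in the same way when they were moved from flat culture (2D) to microwell aggregates (AggreWell). For each gene the change in HEK293T was subtracted from the change in PANC-1, and the result is called the line difference. Genes were kept if their mean FPKM (fragments per kilobase, relative to library depth) was at least 1 in 2D or AggreWell in each line, so that both lines expressed them. This kept 10217 of the 26450 genes in the deposited table, or 38.6%, of which 9832 are protein-coding in RefSeq and 335 are long non-coding RNAs. Of these, 701 were under 1 FPKM in 2D in at least 1 line and passed there through AggreWell alone, and 63 passed through 2D alone. Such genes had to differ between the formats to be kept. Just inside the limit stood ZDHHC14 (1.00128 FPKM in its higher format in HEK293T) and just outside it CNPY2-AS1 (0.999744 FPKM there).

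PANC-1 was derived from a carcinoma of the pancreatic duct. HEK293T is a kidney epithelial line that carries the SV40 large T antigen. Each group of the comparison held 3 libraries of 1 line in 1 format: PANC-1 in 2D, PANC-1 in AggreWell, HEK293T in 2D and HEK293T in AggreWell. No drug or genetic change is given in the labels, nor the days in culture or the size of the aggregates. The series also holds 12 libraries of the same lines grown in a rotating container (DRCC) at 1 or 30 rpm, which entered the same fit. The labels do not call the replicates separate cultures. The p-values therefore rest on library-to-library spread alone, and this could be technical.

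In a solid aggregate cells lose their attachment to rigid plastic, gain contacts with each other, and those inside receive less oxygen and nutrient. Known sensors of these conditions include the hypoxia-inducible factors (HIF), which act when oxygen is low, and the co-activators YAP and TAZ, which leave the nucleus of rounded or crowded cells. Sterol and amino acid supply are read by the SREBP factors and by ATF4. These are background statements and were not measured here.

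The 12 libraries held 37151862 to 39556154 fragments each. Across genes, which are not independent replicates, log2 values correlated at 0.997 to 0.999 within a group, at 0.987 to 0.988 between 2D and AggreWell in PANC-1, and at 0.973 to 0.976 between them in HEK293T. Between the lines the correlation was 0.782 to 0.808. The summed FPKM of 16 PANC-1 markers was 3696 to 4037 in PANC-1 and 279 to 341 in HEK293T, where KRT7 and KRT19, the keratins of duct epithelium, were listed at 0 in each of the 6 libraries. The summed FPKM of the 15 measured HEK293T markers separated the lines less, at 105 to 122 in PANC-1 and 152 to 170.0 in HEK293T. Leukocyte markers summed to 50.4 to 63.0 FPKM in PANC-1 and 1.45 to 3.24 in HEK293T, endothelial markers to 5.83 to 10.3 and 0.703 to 1.19, and fibroblast markers to 13.1 to 14.2 and 9.70 to 10.8. Of the 10 leukocyte markers, only CD68 was expressed in both lines, and CD3E was at 0 in each of the 12 libraries. In a bulk library, fewer cells of a kind and less RNA per cell cannot be told apart.

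Changes are given as AggreWell less 2D on the log2(FPKM + 1) scale ± SE (n = 3 libraries per group), which understates changes of weakly expressed genes. A gene was called at a limma p-value under 0.05 after Benjamini-Hochberg adjustment over the 13392 genes fitted. The line difference was called for 5929 of the 10217 genes, or 58% of those expressed in both lines, against 57% of all genes fitted. It was above 0 for 2780 genes (27.2%; 25% of those fitted) and below 0 for 3149 (30.8%; 32% of those fitted). Counts above and below 0 in the gene lists that follow are of called genes, to be read against 27.2% and 30.8%. Most called differences were small: the lines differed by at least 2-fold for 1.47% of genes (1.94% of those fitted), 33 above 0 and 117 below.

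Both lines moved many genes, and HEK293T moved them further. Percentages in this paragraph and the next are of the 10217 genes first and of the 13392 fitted second. In PANC-1 a change was called for 7219 genes (70.7%; 62.9%), of which 4631 rose (45.3%; 42%) and 2588 fell (25.3%; 20.9%). In HEK293T it was called for 7926 (77.6%; 72.9%), of which 4782 rose (46.8%; 47.5%) and 3144 fell (30.8%; 25.4%). Libraries of 2D and AggreWell did not overlap for 7487 genes in PANC-1 (73.3%; 67.1%) and 8057 in HEK293T (78.9%; 74.8%). A rise of at least 2-fold was called for 117 genes in PANC-1 (1.15%; 1.05%) and 579 in HEK293T (5.67%; 5.09%). A fall of that size was called for 16 (0.157%; 0.194%) and 12 (0.117%; 0.0971%). The change was larger in HEK293T for 6533 genes, and its SD over genes was 0.47 against 0.34 in PANC-1. The median change was 0.087 in PANC-1 and 0.086 in HEK293T, so the lines shared this shift and the median line difference was -0.014. Across genes the changes of the lines correlated at 0.665 (Pearson) and 0.652 (Spearman). Under median-ratio scaling the medians became -0.075 and -0.081. The share of genes that rose was then 28.6% in PANC-1 and 32.4% in HEK293T, while 48.6% of line differences called were above 0 against 46.9% before.

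The plot of both changes shows a cloud along the diagonal that is tilted toward the HEK293T axis. Of the genes that rose in both lines, 3369 in number, the line difference was called for 1876 (55.7%, against 54.7% of the 3898 fitted genes that rose in both), and HEK293T rose more in 1541 of them. Of the 1734 that fell in both, it was called for 866 (49.9%, against 49.7% of 1751 fitted), and HEK293T fell more in 681. Opposite and called movements were fewer. PANC-1 rose and HEK293T fell for 483 genes (4.73%; 3.81%), and PANC-1 fell and HEK293T rose for 406 (3.97%; 3.32%). Changes of at least 1.5-fold in each line in opposite directions were called for 10 genes (0.0979%; 0.0747%).

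**Figure D1:**
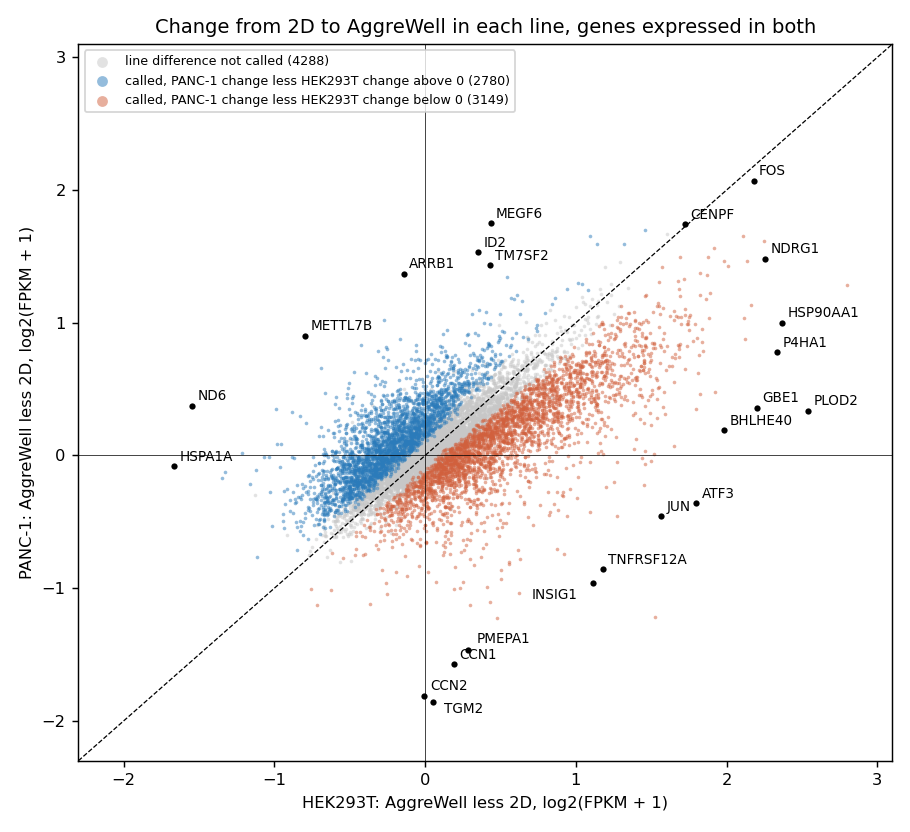
Change from 2D to AggreWell in HEK293T (horizontal axis) and PANC-1 (vertical axis) in log2(FPKM + 1) for the 10217 genes expressed in both lines, 1 point per gene, with the dashed line marking equal change. Blue points are called with a line difference above 0 (2780), orange points below 0 (3149). PLOD2 and GBE1 lie far to the right, CCN1, CCN2 and TGM2 far below, and FOS and CENPF near the line.

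The line difference varied with how the lines differed in 2D, a description in which the 2D libraries enter both sides. It is given for genes with a mean of at least 1 FPKM in 2D in each line, whose membership does not rest on AggreWell. Among 280 genes at least 4-fold higher in PANC-1 than in HEK293T in 2D, on the log2(FPKM + 1) scale, 65.7% were called below 0 and 12.5% above, with a median line difference of -0.30. Among 267 genes at least 4-fold higher in HEK293T, 15.4% were called below 0 and 49.8% above, with a median of 0.20. The first set had a median change of 0.28 in HEK293T and -0.014 in PANC-1.

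Genes that respond to low oxygen had the most negative median line difference of the lists with at least 9 measured genes, -0.92. Of the 25 HIF targets on the list, 18 were expressed in both lines. All 18 rose in HEK293T, each by at least 2-fold, and 15 rose in PANC-1, 3 of them by at least 2-fold. The median change was 1.51 in HEK293T and 0.57 in PANC-1. PANC-1 less HEK293T, the line difference was below 0 for 17 and above 0 for 1, DDIT4 (0.17 ± 0.051), an inhibitor of mTORC1. That difference was -0.25 under quantile normalization.

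PLOD2, the lysyl hydroxylase that prepares collagen for cross-linking, had the most negative line difference among well-expressed genes. In PANC-1 it measured 48.7, 49.2 and 49.7 FPKM in 2D and 62.4, 63.1 and 61.6 in AggreWell. In HEK293T it measured 15.5, 18.5 and 15.5 FPKM in 2D and 101, 104 and 97 in AggreWell. The formats did not overlap in either line, and HEK293T went from the lowest of the 4 groups to the highest. The change was 0.34 ± 0.045 in PANC-1 and 2.54 ± 0.045 in HEK293T, a line difference of -2.2 ± 0.063 (limma adjusted p = 1.6e-16).

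GBE1, the glycogen branching enzyme, behaved alike. Its values were 20.6, 22.3 and 22.6 FPKM in 2D and 29.3, 27.7 and 27.8 in AggreWell in PANC-1, and 5.73, 5.7 and 5.47 FPKM in 2D and 29.9, 29.3 and 29.1 in AggreWell in HEK293T. The lines were far apart in 2D and close together in AggreWell. The line difference was -1.84 ± 0.067 (limma adjusted p = 5.8e-15).

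P4HA1, a catalytic subunit of the collagen prolyl hydroxylase, rose in both lines. PANC-1 gave 18.7, 19.3 and 18.4 FPKM in 2D and 33.1, 32.4 and 33.2 in AggreWell. HEK293T gave 14.9, 16.2 and 14.5 FPKM in 2D and 81, 82.5 and 78.4 in AggreWell. The lines stood near each other in 2D and apart in AggreWell, with a line difference of -1.56 ± 0.049 (limma adjusted p = 6.5e-16).

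BHLHE40, a transcriptional repressor of the clock and hypoxia pathways, rose by 0.19 ± 0.035 in PANC-1 and 1.99 ± 0.035 in HEK293T. ADM, which encodes the vessel-dilating peptide adrenomedullin, fell in PANC-1 (75.6 ± 2.47 to 64.7 ± 1.56 FPKM) and rose in HEK293T (2.86 ± 0.492 to 9.54 ± 0.902 FPKM). VEGFA, the vessel growth factor, rose in HEK293T (14.8 ± 0.351 to 43.5 ± 0.63 FPKM), while in PANC-1 its change was -0.040 ± 0.033 and was not called. NDRG1, a stress-induced gene, rose in both, from 5.44 ± 0.167 to 17 ± 0.344 FPKM in PANC-1 and from 30.2 ± 0.646 to 148 ± 1.67 FPKM in HEK293T.

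The promoters of P4HA1 and BHLHE40 are shown because HIF binds DNA at the core ACGTG. They are the 250 bases before the gene start in RefSeq (GRCh38.p14), 5′ to 3′ on the gene's strand, with matches to ACGTG on either strand in capitals. P4HA1 is read from chr10:73096867-73097116 on the minus strand and BHLHE40 from chr3:4979187-4979436 on the plus strand.
P4HA1: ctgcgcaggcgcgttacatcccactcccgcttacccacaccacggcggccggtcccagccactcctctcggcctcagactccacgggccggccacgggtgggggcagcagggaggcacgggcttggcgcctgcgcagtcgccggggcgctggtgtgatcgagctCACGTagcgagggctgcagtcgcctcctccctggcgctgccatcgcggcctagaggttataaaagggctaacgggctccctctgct
BHLHE40: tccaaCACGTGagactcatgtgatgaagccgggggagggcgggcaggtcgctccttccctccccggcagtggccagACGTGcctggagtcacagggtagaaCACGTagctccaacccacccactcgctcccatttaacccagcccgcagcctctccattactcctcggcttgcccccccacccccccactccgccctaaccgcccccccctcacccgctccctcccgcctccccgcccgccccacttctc
P4HA1 holds 1 match and BHLHE40 holds 4, of which a pair overlaps on opposite strands. Windows that run 250 bases before to 50 bases after the start were found for 14 of the 18 HIF targets, 17 windows in all, since some genes have several. A match was held by 10 of the 17 (58.8%) and by 21.4% of all 35116 such windows. ADM, which ranked between BHLHE40 and P4HA1 by size of line difference on the list, held 0 matches in its window. A match is a description of the letters and not a measured site.

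Glycolysis enzymes followed in part. Of 17 expressed in both lines, the line difference was below 0 for 12 and above 0 for 2, with a median of -0.34 against -0.014 for all genes. PGK1, phosphoglycerate kinase, went from 200.2 ± 2.39 to 454 ± 2.42 FPKM in HEK293T and was 195 ± 10.5 to 196 ± 0.703 FPKM in PANC-1, where its change was not called. ENO2, an enolase, rose in both, by 0.88 ± 0.050 and 2.12 ± 0.050. LDHA, which makes lactate, rose by 0.75 in HEK293T and by 0.092 in PANC-1, where median-ratio scaling gave -0.094.

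**Figure D2:**
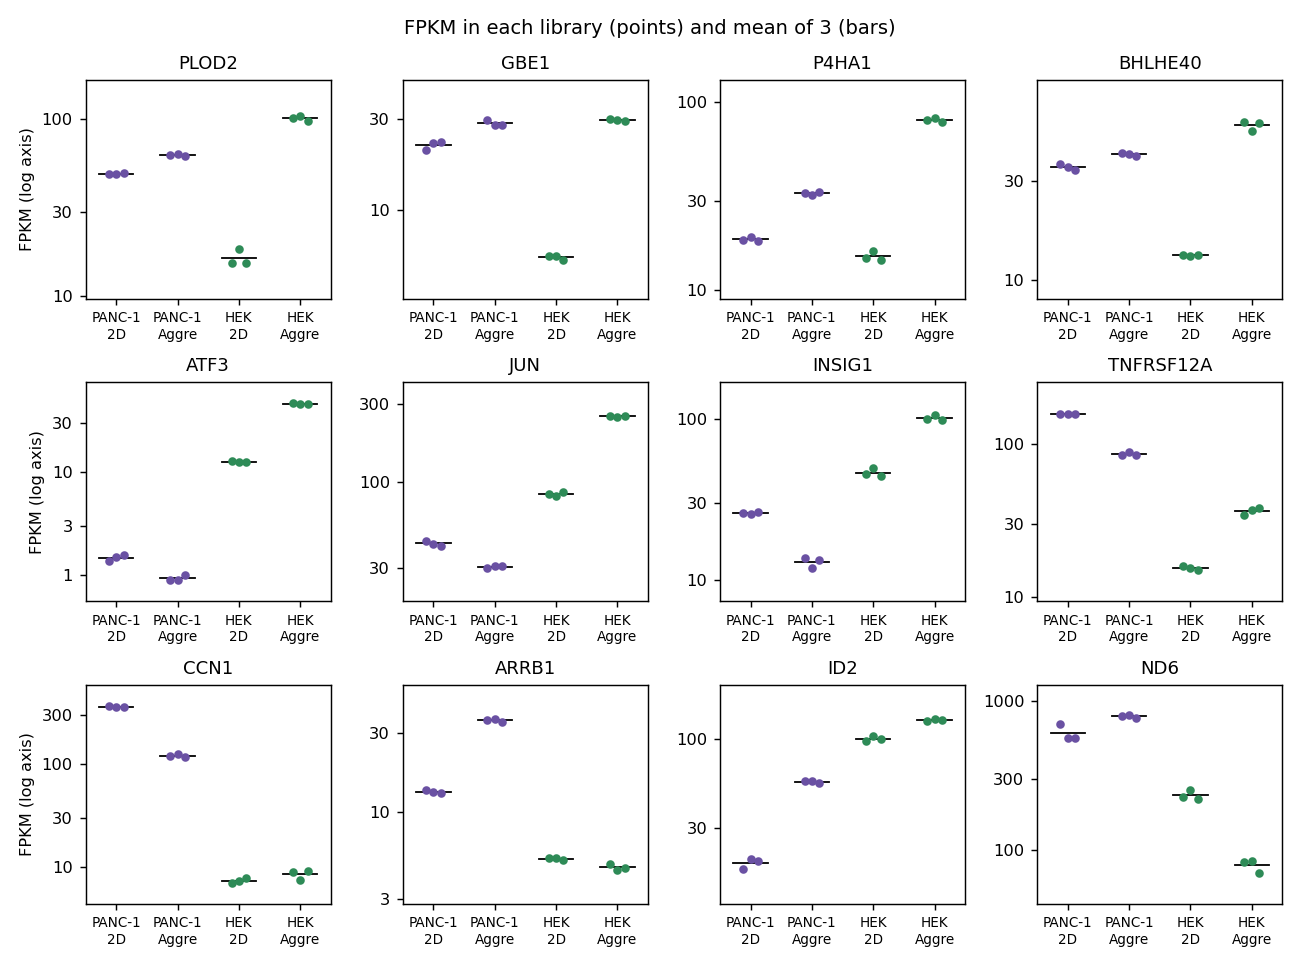
FPKM of 12 named genes in each library (points, log axis) with the mean of 3 libraries (bars), for PANC-1 (purple) and HEK293T (green) in 2D and AggreWell. PLOD2, GBE1, P4HA1 and BHLHE40 climb steeply in HEK293T, ATF3, JUN, INSIG1 and TNFRSF12A fall in PANC-1 and rise in HEK293T, and ARRB1 and ID2 climb in PANC-1.

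Targets of YAP and TAZ fell in PANC-1 and did not fall as a group in HEK293T. Of the 22 listed, 16 were expressed in both lines. In PANC-1 13 fell and 2 rose, with a median of -0.39. In HEK293T 4 fell and 8 rose, with a median of 0.089, near that of all genes, although under median-ratio scaling 6 fell and 5 rose and under quantile normalization 10 fell and 5 rose. PANC-1 less HEK293T, the line difference was below 0 for 13 and above 0 for 2, and 7 moved in opposite directions.

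CCN2, a secreted matricellular protein, measured 78.2, 72.6 and 73.3 FPKM in 2D and 20.9, 20.5 and 20.4 in AggreWell in PANC-1. HEK293T libraries gave 3.01, 2.61 and 3.03 FPKM in 2D and 3.3, 2.24 and 3.14 in AggreWell. The formats did not overlap in PANC-1 and overlapped in HEK293T, where the change was not called. The line difference was -1.81 ± 0.11 (limma adjusted p = 1e-11).

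CCN1, its relative, measured 369, 358 and 356 FPKM in 2D and 119, 124 and 118 in AggreWell in PANC-1. Its levels in HEK293T were 7.02, 7.3 and 7.72 FPKM in 2D and 8.89, 7.52 and 9.2 in AggreWell, where the formats overlapped. The rise there (0.19 ± 0.047) was called, but became -0.039 under quantile normalization. PANC-1 less HEK293T, the line difference was -1.76 ± 0.066 and -1.23 under that setting.

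ANKRD1, a nuclear ankyrin repeat protein, had the largest difference on the list. It lay below the level set for ranking genes and was kept in HEK293T through AggreWell alone, so that it had to rise there. Without it 12 of 15 targets were below 0. It measured 4.82, 5.13 and 4.89 FPKM in 2D and 1.33, 1.79 and 1.57 in AggreWell in PANC-1. The HEK293T values were 0.259, 0.114 and 0.241 FPKM in 2D and 2.62, 2.47 and 2.3 in AggreWell. The lines moved in opposite directions without overlap, with a line difference of -2.74 ± 0.090, which voom on recovered fragments put at -5.3. AMOTL2, a scaffold that retains YAP in the cytoplasm, fell by 1.1 in PANC-1 and rose by 0.43 in HEK293T.

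The promoters of CCN2 and ANKRD1 are shown because TEAD, the DNA-binding partner of YAP, recognises GGAATG. They are again the 250 bases before the start in RefSeq (GRCh38.p14), with matches on either strand in capitals. CCN2 is read from chr6:131951373-131951622 and ANKRD1 from chr10:90921088-90921337, both on the minus strand.
CCN2: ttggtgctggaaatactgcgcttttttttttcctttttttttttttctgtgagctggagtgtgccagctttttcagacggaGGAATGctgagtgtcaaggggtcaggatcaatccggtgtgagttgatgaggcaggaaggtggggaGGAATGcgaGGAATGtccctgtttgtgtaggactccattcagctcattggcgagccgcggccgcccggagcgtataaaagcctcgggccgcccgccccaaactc
ANKRD1: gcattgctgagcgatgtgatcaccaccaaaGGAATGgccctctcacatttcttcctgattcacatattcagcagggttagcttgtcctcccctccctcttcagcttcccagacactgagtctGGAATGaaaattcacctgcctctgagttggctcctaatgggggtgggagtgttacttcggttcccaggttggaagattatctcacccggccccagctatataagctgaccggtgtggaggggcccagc
CCN2 holds 3 matches and ANKRD1 holds 2, each on the gene's own strand. A match was held by 7 of 12 windows of YAP/TAZ targets (58.3%) and by 14% of all windows.

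Matrix, adhesion and cytoskeleton genes leaned the same way. The line difference was below 0 for 11 of 13 matrix genes, 8 of 12 integrins and laminins, 6 of 9 collagens and 13 of 21 genes of the actin cytoskeleton, and above 0 for 2, 1, 3 and 3. Of all genes expressed in both lines, 30.8% were called below 0 and 27.2% above. Of the genes below 0, 2 of the matrix list, 1 of the integrins and laminins and 1 of the collagens were kept through AggreWell alone in a line. TGM2, a transglutaminase that cross-links matrix, was 10.8 ± 1.07 to 2.26 ± 0.0783 FPKM in PANC-1 and 1.3 ± 0.156 to 1.38 ± 0.119 FPKM in HEK293T, where its change was not called. COL5A1 and COL13A1, collagen chains, fell in PANC-1 (-1.03 and -0.74) and rose in HEK293T (0.62 and 0.92). COL4A5, a basement membrane chain, went the other way, with 0.41 in PANC-1 and -0.29 in HEK293T. TPM2, a tropomyosin, was 266 ± 15.2 to 222 ± 4.36 FPKM in PANC-1 and 3.97 ± 0.129 to 8.65 ± 0.136 FPKM in HEK293T. Of 5 keratin and epithelial differentiation genes, the line difference was below 0 for 3 and above 0 for 0, and in HEK293T 2 rose and 2 fell. KRT8, a keratin of simple epithelia, fell in PANC-1 (592 ± 8.89 to 501 ± 5.95 FPKM) and rose in HEK293T (30.1 ± 1.86 to 70.3 ± 1.07 FPKM). Its partner KRT18 fell in PANC-1 (-0.26) and was -0.073 in HEK293T, not called.

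PMEPA1, an inhibitor of TGF-beta signalling, measured 36.2, 34.3 and 34.1 FPKM in 2D and 12.1, 11.9 and 12 in AggreWell in PANC-1. In HEK293T it measured 2.03, 1.89 and 2.12 FPKM in 2D and 2.61, 2.77 and 2.62 in AggreWell. The formats did not overlap in either line. PANC-1 less HEK293T, the line difference was -1.75 ± 0.056, while the rise in HEK293T (0.28 ± 0.040) became -0.053 under quantile normalization.

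**Figure D3:**
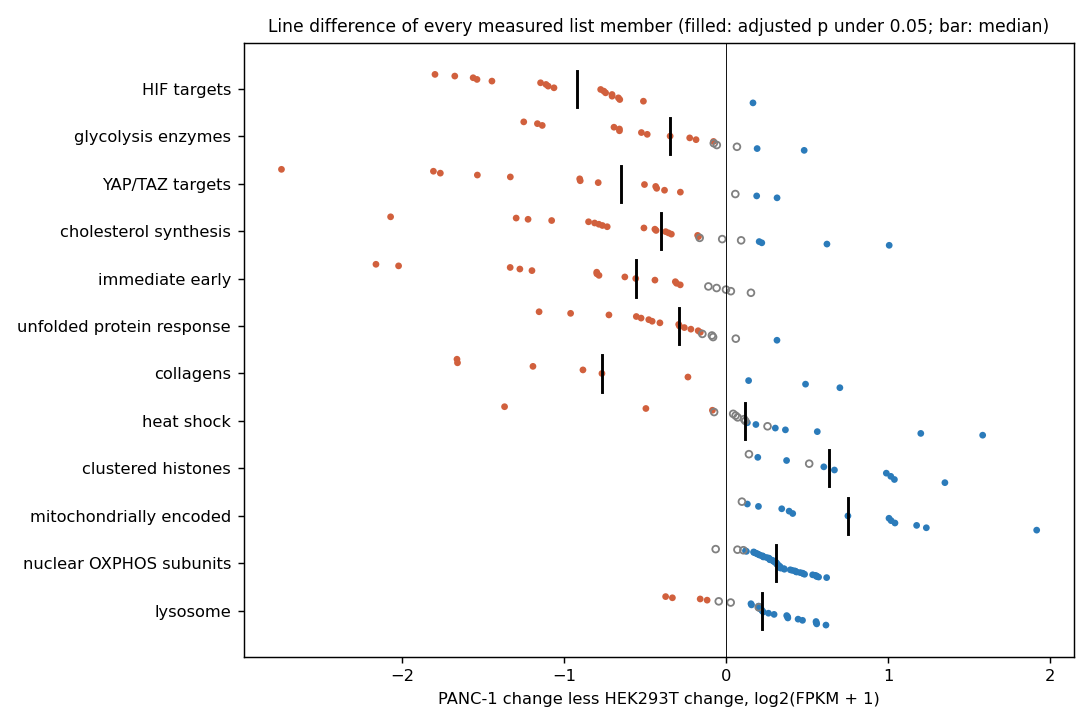
Line difference (PANC-1 change less HEK293T change, log2(FPKM + 1)) of each measured member of 12 gene lists, 1 point per gene, filled where the adjusted p was under 0.05, with a bar at the median. HIF targets lie to the left except DDIT4, and the nuclear OXPHOS subunits and mitochondrially encoded genes lie to the right.

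Immediate early genes, which growth and stress signals induce within minutes, had 14 of 19 line differences below 0 and 0 above 0, and 11 below 0 without the 4 kept through AggreWell alone in a line, among them FOS and FOSL2. Of the MAPK feedback genes, 9 of 10 were below 0 and 0 above. ATF3, a stress-induced transcription factor, measured 1.36, 1.48 and 1.58 FPKM in 2D and 0.894, 0.883 and 1.0 in AggreWell in PANC-1. HEK293T libraries gave 12.8, 12.7 and 12.6 FPKM in 2D and 47.2, 46.3 and 46.6 in AggreWell. It fell in the first and rose in the second without overlap, with a line difference of -2.16 ± 0.052 (limma adjusted p = 8.9e-18). In PANC-1 its AggreWell mean was 0.926 FPKM, so ATF3 was kept there through 2D alone and had to fall there. ATF3 is among the 11.

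JUN, an AP-1 subunit, measured 43.9, 41.8 and 40.9 FPKM in 2D and 30.0, 30.8 and 30.6 in AggreWell in PANC-1. Its levels in HEK293T were 84.7, 81.9 and 86.6 FPKM in 2D and 253, 248 and 254 in AggreWell. These groups did not overlap, and the line difference was -2.02 ± 0.040 (limma adjusted p = 5e-19). FOSL2, another AP-1 subunit, was 4.01 ± 0.226 to 4.2 ± 0.129 FPKM in PANC-1, not called, and 0.677 ± 0.0471 to 3.38 ± 0.121 FPKM in HEK293T. DUSP5 and HBEGF, a phosphatase of ERK and an EGF receptor ligand, fell in PANC-1 (-0.83 and -1.0). In HEK293T they rose by 0.32 and 0.23, values that were -0.017 and -0.12 under quantile normalization.

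TNFRSF12A, the receptor of the cytokine TWEAK, measured 157, 157 and 156 FPKM in 2D and 85, 88.3 and 85.2 in AggreWell in PANC-1. The HEK293T values were 16.1, 15.5 and 15.1 FPKM in 2D and 34.4, 37 and 38 in AggreWell. The receptor fell in the line with more of it and rose in the line with less, without overlap, and the line difference was -2.03 ± 0.049 (limma adjusted p = 8.2e-18).

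Cholesterol synthesis genes fell in PANC-1 and were divided in HEK293T. Of 24 expressed in both lines, 18 fell and 1 rose in PANC-1, and 7 fell and 12 rose in HEK293T, where median-ratio scaling gave 12 and 10. The line difference was below 0 for 17 and above 0 for 4. INSIG1, the sterol-regulated anchor of the SREBP complex, measured 26.2, 25.8 and 26.3 FPKM in 2D and 13.8, 11.8 and 13.3 in AggreWell in PANC-1. In HEK293T it measured 45.3, 49.8 and 44.4 FPKM in 2D and 99.7, 106 and 98.9 in AggreWell. The lines moved apart without overlap, with a line difference of -2.07 ± 0.065 (limma adjusted p = 6.2e-16).

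MSMO1, a sterol methyl oxidase, fell from 14.7 ± 0.804 to 10.8 ± 0.6 FPKM in PANC-1 and rose from 17.9 ± 0.716 to 33.8 ± 0.318 FPKM in HEK293T. TM7SF2, a sterol reductase, went the other way from MSMO1 in PANC-1: it measured 5.21, 5.51 and 5.88 FPKM in 2D and 17.4, 16.9 and 15.7 in AggreWell in PANC-1 and 11.6, 11.5 and 10.9 FPKM in 2D and 14.8, 15.7 and 16.4 in AggreWell in HEK293T. It rose in both lines without overlap and more in PANC-1, with a line difference of 1.01 ± 0.085. The sterol element TCACNCCAC was held by 1 of 23 windows of this list (4.35%), that of SREBF2, and by 1.13% of all windows.

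Stress genes of the endoplasmic reticulum and of amino acid shortage had line differences mainly below 0, with 14 of 19 in the unfolded protein response list and 14 of 20 among ATF4 targets (1 and 2 above 0). HSPA5, the chaperone BiP, fell in PANC-1 (238 ± 2.25 to 159.9 ± 3.25 FPKM) and rose in HEK293T (207 ± 5.2 to 271 ± 4.4 FPKM). DDIT3, which encodes CHOP, fell by 0.30 and rose by 0.91. ATF4 itself fell in both lines (-0.62 and -0.60), with a line difference of -0.012 ± 0.039 that was not called (but was -0.15 and called under quantile normalization). CHAC1, a glutathione-degrading enzyme, fell by 0.53 in PANC-1 and rose by 0.71 in HEK293T, but was kept in each line through the higher format alone. CHAC1 therefore had to fall in PANC-1 and rise in HEK293T. ATF3, described above, is also on the ATF4 list, and it had to fall in PANC-1, where 2D alone kept it. Both genes are among the 14 ATF4 targets below 0. The element TGATGNAA was held by 5 of 26 windows of ATF4 targets (19.2%) and by 3.62% of all windows.

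Heat shock genes, which here include the mitochondrial chaperonins, did not move as 1 group, with 7 of 17 line differences above 0 and 3 below. HSP90AA1, the inducible HSP90, measured 198, 204 and 200.5 FPKM in 2D and 404, 402 and 401 in AggreWell in PANC-1. HEK293T libraries gave 122, 121 and 122 FPKM in 2D and 635, 630.5 and 625 in AggreWell. It rose in both without overlap and more in HEK293T (-1.37 ± 0.025). HSPA8, the constitutive HSC70, fell in both (-0.37 and -0.93). HSPA1A, an inducible HSP70, measured 44, 46.3 and 46.1 FPKM in 2D and 42.2, 43.2 and 43.3 in AggreWell in PANC-1 and 36.5, 35.1 and 27.4 FPKM in 2D and 9.78, 11 and 8.35 in AggreWell in HEK293T. It fell in HEK293T without overlap, its change in PANC-1 was not called, and the line difference was 1.58 ± 0.16. HSPA1A and HSPA1B are near-identical, so how the counting divided their reads is uncertain, and HSPA1B gave 1.2 ± 0.053.

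Genes with line differences above 0 included 33 of at least 2-fold. ARRB1, beta-arrestin 1, which uncouples G protein-coupled receptors, measured 13.6, 13.2 and 13.1 FPKM in 2D and 36.1, 36.7 and 35.1 in AggreWell in PANC-1. Its levels in HEK293T were 5.3, 5.29 and 5.16 FPKM in 2D and 4.86, 4.5 and 4.63 in AggreWell. It rose in PANC-1 and fell slightly in HEK293T without overlap, and the line difference was 1.51 ± 0.048 (limma adjusted p = 6.5e-16). METTL7B, a thiol methyltransferase, measured 0.903, 0.645 and 0.779 FPKM in 2D and 1.91, 2.56 and 2.51 in AggreWell in PANC-1. The HEK293T values were 15.8, 15.5 and 15.9 FPKM in 2D and 9.83, 7.98 and 8.22 in AggreWell. It rose from a low level in 1 line and fell in the other, with a line difference of 1.7 ± 0.15.

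MEGF6, METTL7B and FOXO4 were under 1 FPKM in 2D in PANC-1, and MEGF6 also in HEK293T, so they were kept there through AggreWell alone. MEGF6, a protein with EGF-like repeats, rose in both lines, from 0.858 ± 0.0364 to 5.25 ± 0.0876 FPKM in PANC-1 and from 0.618 ± 0.109 to 1.18 ± 0.0584 FPKM in HEK293T, with a line difference of 1.32 ± 0.084. ID2, an inhibitor of basic helix-loop-helix factors and a BMP target, measured 17.2, 19.8 and 19.1 FPKM in 2D and 56.4, 56.2 and 54.9 in AggreWell in PANC-1. In HEK293T it measured 97, 104 and 99.9 FPKM in 2D and 126, 129.7 and 128 in AggreWell. It rose in both without overlap, and the line difference was 1.18 ± 0.091 (limma adjusted p = 8e-10). ITPR1, a calcium channel of the endoplasmic reticulum, rose by 0.95 in PANC-1. In HEK293T it rose by 0.15, a value that was -0.23 under quantile normalization. FOXO4, a forkhead factor restrained by insulin signalling, rose by 0.47 in PANC-1 and fell by 0.66 ± 0.054 in HEK293T. EIF3C, a translation initiation factor subunit with a near-copy in the genome, gave 1.21 ± 0.18 and is uncertain for that reason.

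Of 10 histone genes, the line difference was above 0 for 8 and below 0 for 0, with a median change of 0.36 in PANC-1 and -0.35 in HEK293T. In PANC-1 7 rose and 1 fell, but 4 rose and 2 fell under median-ratio scaling. In HEK293T 0 rose and 7 fell, but 2 rose and 4 fell with the trend in GC content and transcript length removed. The line difference was above 0 for 9 and 8 under these settings. H2BC12 was 114 ± 2.91 to 136 ± 2.01 FPKM in PANC-1 and 61.9 ± 2.39 to 35.3 ± 0.566 FPKM in HEK293T. H2AC6, a core histone H2A, had the largest difference, 1.35 ± 0.24. Histone genes have near-identical copies and their transcripts largely lack poly(A) tails, so their values are uncertain. Of the 10, 3 were under 1 FPKM in AggreWell in a line, H2AC6 among them, and were kept there through 2D, so that they had to fall there. H2AC6 had to fall in HEK293T. Under 1 FPKM in 2D in a line was 1 of the 10, which had to rise there.

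Lysosome genes had line differences mainly above 0. Of 25, 18 rose and 3 fell in PANC-1, 7 rose and 13 fell in HEK293T, and the line difference was above 0 for 18 and below 0 for 4. The directions within a line depended on scaling: 7 rose and 9 fell in PANC-1 under median-ratio scaling, and 11 rose and 8 fell in HEK293T with mitochondrially encoded genes left out. CTSD, a cathepsin, rose by 0.43 in PANC-1 and changed by -0.12 in HEK293T, or by 0.0082 with mitochondrially encoded genes left out and 0.080 under quantile normalization. Of 19 NRF2 targets, which protect from oxidants, 12 were above 0 and 3 below.

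**Figure D4:**
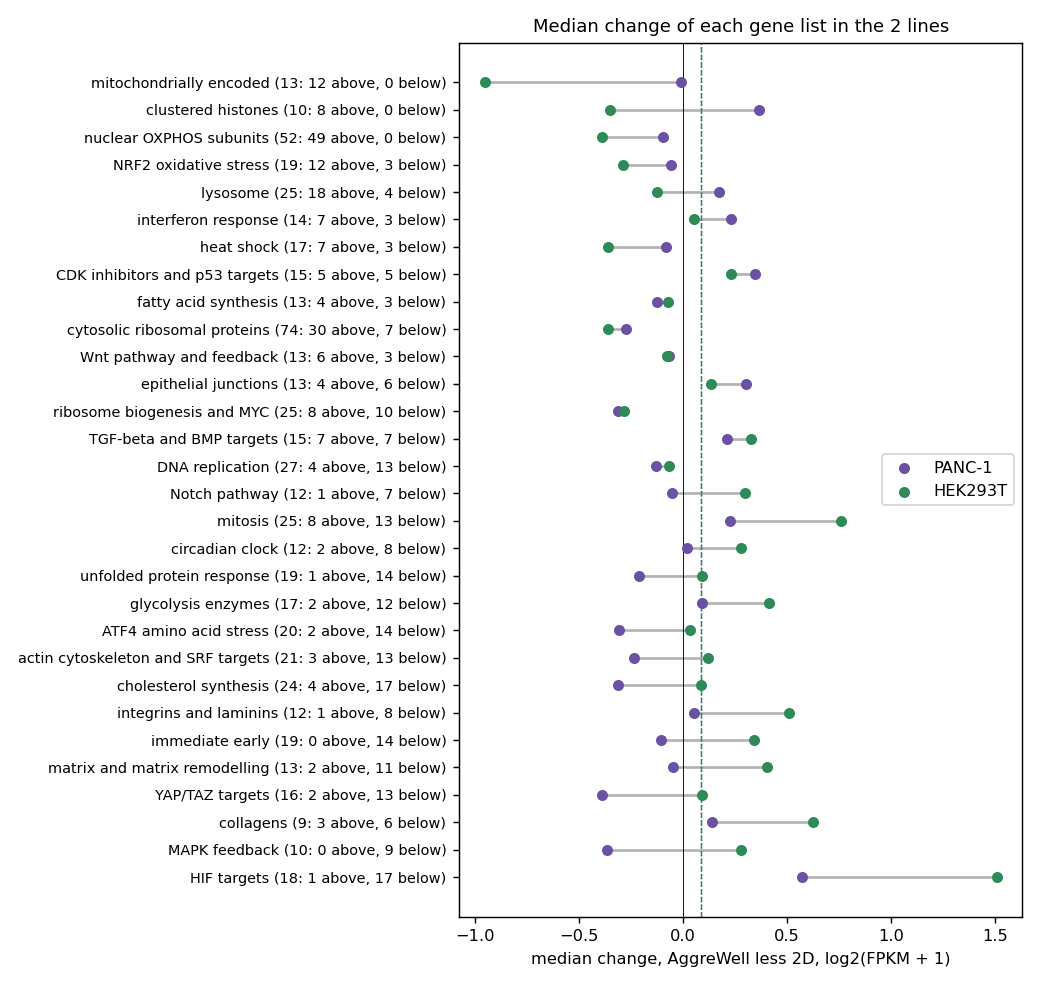
Median change from 2D to AggreWell (log2(FPKM + 1)) of each gene list with at least 9 measured members, in PANC-1 (purple) and HEK293T (green), with the number of members and of line differences called above and below 0. Vertical broken lines mark the medians of all genes, 0.087 and 0.086. HIF targets and mitosis genes stand far to the right in HEK293T, and mitochondrially encoded genes far to the left.

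Genes of oxidative phosphorylation (OXPHOS), which makes most ATP from oxygen, fell in HEK293T more than in PANC-1. Of 52 nuclear-encoded subunits, 47 fell and 2 rose in HEK293T, and 22 fell and 10 rose in PANC-1. Under quantile normalization 12 fell and 15 rose in PANC-1, and with mitochondrially encoded genes left out 10 fell and 14 rose there. The medians were -0.39 and -0.10. PANC-1 less HEK293T, the line difference was above 0 for 49 and below 0 for 0, with a median of 0.31 and a range from -0.063 to 0.62. ATP5MC1, a subunit of the ATP synthase ring, was 405 ± 20.4 to 320.0 ± 5.52 FPKM in PANC-1 and 211 ± 3.56 to 113 ± 1.77 FPKM in HEK293T. UQCRC2, a core subunit of complex III, was an exception and rose in both, by 0.32 and 0.38.

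Of 13 mitochondrially encoded genes, the line difference was above 0 for 12 and below 0 for 0, with a median change of -0.0092 in PANC-1 and -0.95 in HEK293T. Together they took 4.33% ± 0.31 of fragments in 2D and 4.28% ± 0.030 in AggreWell in PANC-1 (SD, n = 3), and 4.77% ± 0.085 and 3.51% ± 0.069 in HEK293T. ND6, a complex I subunit encoded on the opposite strand to most of its neighbours, measured 707, 567 and 564 FPKM in 2D and 791, 805 and 774 in AggreWell in PANC-1. HEK293T libraries gave 226, 254 and 220.4 FPKM in 2D and 83.8, 85 and 70.1 in AggreWell. It rose in PANC-1, where 1 library of 2D lay apart, and fell in HEK293T without overlap, with a line difference of 1.92 ± 0.13 (2.02 without that library). The change of ND4 in HEK293T was -0.080 and not called, while ND2 and COX3 fell (-1.35 ± 0.045 and -1.12 ± 0.036). Copies of these genes in the nuclear genome and the unknown strand setting make their values uncertain. Under quantile normalization 8 of the 13 were called above 0 and 2 below. A check on GC content and length is void for this list, since only 9 of the 13 genes had these values.

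Transcript length and base composition moved with these results. Across 10064 genes with values, the line difference had a Spearman correlation of -0.26 with transcript length and 0.23 with GC content. The fifth of genes with the shortest transcripts had a median line difference of 0.11, and the fifth with the longest -0.11. The median transcript was 1265.5 bases in the nuclear OXPHOS list and 3369 in all. With the trend removed, the OXPHOS median was 0.25 and 40 were above 0. Of 74 cytosolic ribosomal proteins, whose median transcript is 1176 bases, 30 were above 0 and 7 below, with a median of 0.073. This median became -0.020 with the trend removed and -0.016 under quantile normalization. The nuclear-retained RNAs MALAT1 and NEAT1 summed to 43.6 FPKM in 2D and 115 in AggreWell in PANC-1, and to 5.21 and 39.4 in HEK293T. The part of length, composition and nuclear RNA in the line difference was not tested.

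Cell cycle genes were divided. Of 25 mitosis genes the line difference was below 0 for 13 and above 0 for 8, where all genes expressed in both lines gave 30.8% and 27.2%. TOP2A, a topoisomerase, rose by 1.03 in PANC-1 and 2.11 in HEK293T, and MKI67, the Ki-67 antigen, rose by 0.54 and 1.31. PLK1 and CCNB1, a kinase and a cyclin of mitotic entry, fell in both lines (-0.36 and -0.38 in PANC-1, -0.86 and -0.74 in HEK293T). Among 27 DNA replication genes, 13 were below 0 and 4 above. POLA1, a subunit of DNA polymerase alpha, rose by 0.34 and 1.15, and MCM5, a helicase subunit, gave 0.058 in PANC-1 and -0.39 in HEK293T, where only the second was called. Of 15 CDK inhibitors and p53 targets, 3 of them kept through AggreWell alone in a line, 5 were above 0 and 5 below. In PANC-1 11 rose and 1 fell, and in HEK293T 10 rose and 3 fell. CDKN1B, the inhibitor p27, rose by 0.27 in PANC-1 and fell by 0.32 ± 0.052 in HEK293T, unlike most of the list there.

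Some genes changed strongly in both lines with no line difference called. CENPF, a kinetochore protein, measured 14.1, 13.8 and 13.7 FPKM in 2D and 49.1, 48.7 and 48 in AggreWell in PANC-1. Its levels in HEK293T were 1.78, 2.02 and 1.71 FPKM in 2D and 8.27, 8.49 and 8.27 in AggreWell. Both lines rose without overlap, and the line difference was 0.019 ± 0.051 (95% interval -0.088 to 0.13), but its sign depended on the setting. A pseudocount of 0.1 gave -0.32, voom -0.38 and removal of the GC and length trend 0.16, all called. BOP1, a ribosome assembly factor, fell in both, from 56.8 ± 1.33 to 33.4 ± 0.604 FPKM in PANC-1 and from 138 ± 4.55 to 80.5 ± 4.63 FPKM in HEK293T, with a line difference of 0.021 ± 0.054 (-0.093 to 0.13). PHF5A, a splicing factor subunit, fell by 0.72 in PANC-1 and fell by 0.76 in HEK293T, with a 95% interval of the line difference of -0.048 to 0.14. FOS, an AP-1 subunit, measured 0.252, 0.183 and 0.237 FPKM in 2D and 4.18, 4.28 and 3.98 in AggreWell in PANC-1 and 1.15, 0.961 and 0.832 FPKM in 2D and 8.16, 8.14 and 7.57 in AggreWell in HEK293T. The 2D means of FOS were 0.224 FPKM in PANC-1 and 0.981 FPKM in HEK293T. FOS was therefore kept through AggreWell alone in both lines and had to rise in each. Its line difference of -0.11 ± 0.090 (-0.30 to 0.079) was not called on the scale with a pseudocount of 1. It became 0.81 with a pseudocount of 0.1 and 1.15 with voom, both called.

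The line differences of the DRCC formats are given beside those of AggreWell, and all 3 share the same 2D libraries. CCN2 gave -3.83 at 1 rpm and -2.9 at 30 rpm, and CCN1 -2.99 and -2.4, on the same side as in AggreWell. JUN gave -2.19 and -1.31, and ATF3 -1.83 and -1.11. PLOD2 gave -0.49 and 0.17, and GBE1 -0.15 and 0.69. INSIG1 gave 1.05 and 0.91, on the other side of 0 from AggreWell, as did ND6 (-0.88 and -6.43) and ID2 (-2.38 and -1.76). BHLHE40, low in its AggreWell response in PANC-1, changed there by 1.9 and 2.38 in the DRCC formats. The AggreWell difference was not tested against the DRCC differences.

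**Figure D5:**
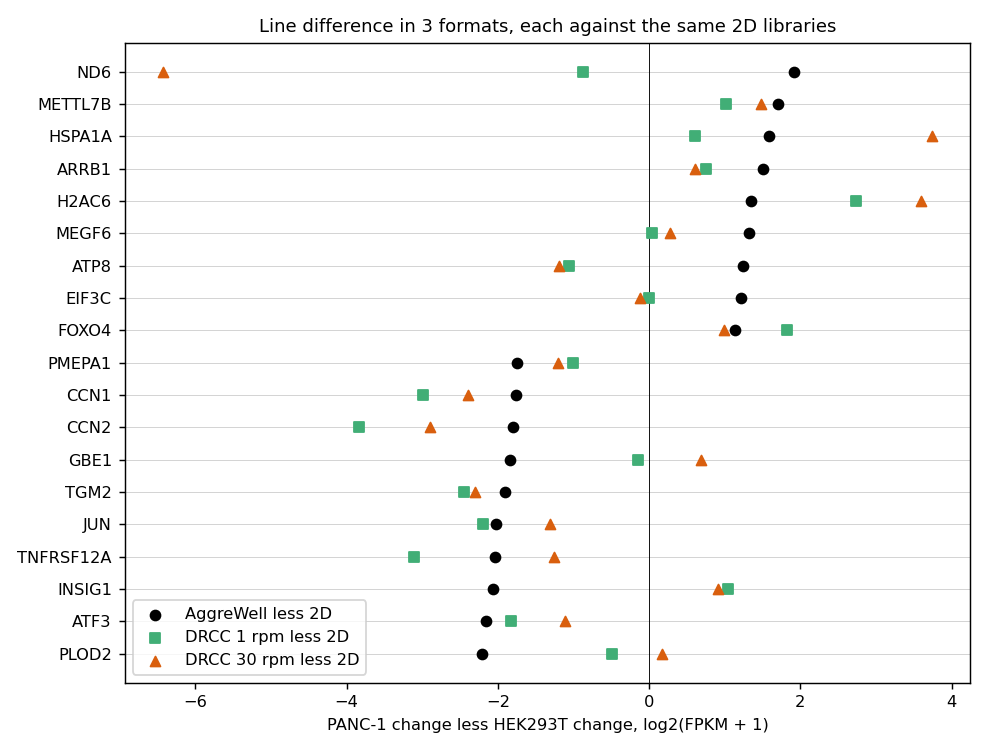
Line difference (PANC-1 change less HEK293T change, log2(FPKM + 1)) of 19 named genes in AggreWell (circles), DRCC at 1 rpm (squares) and DRCC at 30 rpm (triangles), each against the same 2D libraries. CCN1, CCN2, TGM2, JUN and ATF3 lie left of 0 in all 3 formats, while INSIG1, ND6 and ATP8 change sides.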

How the data were processed

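FPKM values of 26450 genes in 24 libraries were deposited by the authors as a single table. The submitters' processing notes list HISAT2, HTSeq, fastp and R 3.2.0 without their roles. They also list the mouse build mm10, while 25146 of the table's symbols match human RefSeq genes. Strand and poly(A) selection are not given in the sources used here. Whole fragments were recovered for 26449 genes (tolerance 0.01), which gave the depths.

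Values were tested as log2(FPKM + 1) with limma 3.58.1 (intensity trend) in R 4.3.3, with 1 mean for each of 8 groups over 24 libraries. A gene was fitted if 3 libraries reached an FPKM of 1 or if both lines expressed it (13392 genes). The line difference is a contrast of that fit. Replicates were not blocked. Tables and figures were made in Python 3.11.15 with pandas 2.3.3.

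The genes, the 39 lists and the tests were chosen with earlier results of these data known. The rule for named genes took the 8 largest line differences in each direction, the 6 largest of each opposite kind and 4 of each same-direction kind, among protein-coding genes with the difference called, a highest group mean of 5 FPKM or more and no overlap of formats in the line that moved more. It added 3 shared rises and 3 shared falls of 5 FPKM or more with no difference called, and 3 called genes per list, applied without the FPKM and overlap limits. Genes of the text outside it were chosen after their values were seen: AMOTL2, ATF4, CCNB1, COL4A5, COX3, DDIT4, HSPA8, LDHA, MCM5, MKI67, ND4, NDRG1, PLK1, SREBF2, UQCRC2, VEGFA, MALAT1 and NEAT1. Alternatives were another pseudocount, filter, scaling or normalization, voom on recovered fragments, mitochondrially encoded genes left out, a replicate block and each library left out. Further settings, chosen after seeing the data, kept genes with a mean of 1 FPKM in 2D in each line, or took out the trend with GC and length of GENCODE 29 transcripts.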

Additional observations from a re-analysis of the deposited data

Results flagged for a closer look

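The change from 2D to AggreWell differed between the lines, by the limma contrast of the difference itself, for each of the genes below, taken from the ranking by line difference. Values are PANC-1 change less HEK293T change in log2(FPKM + 1).

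Below 0 stood PLOD2 (-2.20), ATF3 (-2.16), INSIG1 (-2.07), TNFRSF12A (-2.03), JUN (-2.02) and TGM2 (-1.91). GBE1 (-1.84), CCN2 (-1.81), CCN1 (-1.76) and PMEPA1 (-1.75) followed. Among these, ATF3, INSIG1, TNFRSF12A, JUN, CCN1 and PMEPA1 fell in PANC-1 and rose in HEK293T. ATF3 was kept in PANC-1 through 2D alone, so that it had to fall there. The rises of CCN1 and PMEPA1 in HEK293T turned below 0 under quantile normalization, and the formats of CCN1 overlapped in HEK293T.

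Above 0 stood ND6 (1.92), METTL7B (1.70), HSPA1A (1.58), ARRB1 (1.51), H2AC6 (1.35), MEGF6 (1.32), ATP8 (1.24), EIF3C (1.21) and FOXO4 (1.13). Of these, ND6, METTL7B, ARRB1, H2AC6, EIF3C and FOXO4 rose in PANC-1 and fell in HEK293T. ATP8 had a wide 2D spread in PANC-1, with 996, 561 and 523 FPKM in 2D and 729.6, 676 and 621 in AggreWell, and lay in the mitochondrial genome beside ATP6, whose reading frame overlaps its own. Without the first of these libraries its line difference was 1.53. METTL7B, MEGF6 and FOXO4 were kept in PANC-1 through AggreWell alone, MEGF6 also in HEK293T, and H2AC6 in HEK293T through 2D alone.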

How the results depend on the processing

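Each library left out in turn gave 5607 to 6008 genes with a line difference called (main 5929), 2585 to 2765 above 0 and 2973 to 3243 below, 29 to 33 and 113 to 125 of at least 2-fold, 6840 to 7326 called in PANC-1, 7598 to 8003 in HEK293T and 802 to 889 in opposite directions. Same-numbered libraries of 2D and AggreWell had deviations correlated at 0.0093, -0.053 and -0.00059 in PANC-1 and -0.022, 0.27 and 0.16 in HEK293T. Differently numbered libraries gave -0.048 to 0.057 in PANC-1 and -0.27 to 0.18 in HEK293T. Deviations from a group mean sum to 0, so these values cannot decide whether replicate numbers pair the samples. With the replicate number as a block 6043 genes were called for the line difference. Keeping the 9516 genes with a mean of 1 FPKM in 2D in each line gave 5536. Voom on recovered fragments called 5841. The counts of 2-fold differences above and below 0 became 73 and 252 with a pseudocount of 0.1 and 79 and 297 with voom on recovered fragments. With the GC and length trend removed 21 stood above 0. With a mean FPKM of at least 5, which keeps 6532 genes, 1999 were called below 0, 20 and 70 differed by 2-fold, and 4722 and 5239 were called in PANC-1 and HEK293T. Quantile normalization put 51.1% of line differences called above 0 and leaving out mitochondrially encoded genes 41.2%, against 46.9%. Median-ratio scaling turned the PANC-1 change of LDHA (-0.094), and leaving out mitochondrially encoded genes that of CTSD in HEK293T (0.0082). Quantile normalization turned the HEK293T changes of CTSD (0.080), CCN1 (-0.039), PMEPA1 (-0.053), DUSP5 (-0.017), HBEGF (-0.12) and ITPR1 (-0.23), and the line difference of DDIT4 (-0.25). The causes were not tested.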

Other observations

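Developmental signalling lists were divided. Their counts stand beside 30.8% called below 0 and 27.2% above among all genes expressed in both lines. Of 12 Notch genes, the line difference was below 0 for 7 and above 0 for 1. The 12 include 3 genes kept through AggreWell alone in a line, where they had to rise. HES4, a Notch target, fell in PANC-1 (26.2 ± 0.196 to 18.1 ± 0.446 FPKM) and rose in HEK293T (79 ± 0.834 to 115 ± 2.91 FPKM), and JAG1, a Notch ligand kept in HEK293T through AggreWell alone, fell by 0.56 and rose by 0.34. Of 13 Wnt genes, 6 were above 0 and 3 below. The largest difference on the list was below 0, that of WNT5B, a Wnt ligand (-1.43 ± 0.097). WNT5B was 8.51 ± 0.976 to 3.34 ± 0.0344 FPKM in PANC-1 and 1.61 ± 0.136 to 2.21 ± 0.156 FPKM in HEK293T. AXIN2, a feedback gene of the pathway, went the other way. It rose in PANC-1 (1.5 ± 0.11 to 2.98 ± 0.0694 FPKM) and fell in HEK293T (3.41 ± 0.249 to 2.85 ± 0.143 FPKM). Of 15 TGF-beta and BMP genes, 7 were above 0 and 7 below. NOG, a secreted BMP inhibitor, rose in HEK293T (3.01 ± 0.154 to 10.1 ± 0.866 FPKM), while in PANC-1 it was 13.4 ± 1.24 to 13.7 ± 0.722 FPKM and not called.

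The lists of this paragraph also stand beside 30.8% called below 0 and 27.2% above among all genes expressed in both lines. Of 12 clock genes, 8 were below 0 and 2 above. NR1D2, a repressor of the clock, fell by 0.44 in PANC-1 and rose by 0.48 in HEK293T, and DBP, an output gene, rose by 0.43 and fell by 0.26 ± 0.056. Of 14 interferon response genes, 7 were above 0 and 3 below. B2M, the light chain of MHC class I, rose in PANC-1 (166 ± 10.1 to 212 ± 0.632 FPKM) and fell in HEK293T (66.4 ± 1.37 to 52.7 ± 1.15 FPKM). Of 13 epithelial junction genes, 4 were above 0 and 6 below, of 13 fatty acid synthesis genes 4 and 3, and of 25 ribosome biogenesis genes 8 and 10.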
